A study of Mus musculus with 18 samples.

Results

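Loss of Polycomb repressive complex 2 (PRC2) was compared with loss of Polycomb repressive complex 1 (PRC1) in contacts captured across the mouse HoxD locus by 5C (chromosome conformation capture carbon copy). The comparison used 2 libraries of Eed-/- embryonic stem cells (ESCs) against 3 libraries of Ring1B-/- ESCs, which are 5 of the 18 libraries in the series. In addition, 2 libraries of WTF18 cells, the wild-type ESCs of the study, gave the level from which each mutant departed. All were grown with LIF on a feeder layer of mitomycin C-treated embryonic fibroblasts, and none of these groups received a treatment. The study's methods name a different line for each genotype and more than 1 Eed-/- clone, so genotype and cell line cannot be told apart. The libraries are not assigned to clones. They hold contacts of a single locus and no reading of Eed or Ring1B, so the genotypes could not be checked. Ring1B-/- replicates 1 and 2 carry those numbers in their titles, and the library without a number is called replicate 3.

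Polycomb complexes keep developmental genes such as the Hox genes silent in ESCs. Eed is the core PRC2 subunit that binds methylated histone H3 lysine 27 and is needed for the enzyme to place that mark. Ring1B is the E3 ligase of PRC1, which places ubiquitin on histone H2A and is recruited in part through the mark left by PRC2. The study states that Eed-/- cells also lose binding of Ring1B at Hox loci. In Ring1B-/- cells, by its account, PRC2 and its mark persist there. Hoxd genes lie side by side in the order of their use along the body axis, from the 3′ genes such as Hoxd1 and Hoxd3 to the 5′ genes such as Hoxd12 and Hoxd13. In 5C, ends of restriction fragments that were cross-linked together are ligated, and primers of alternating direction count the junctions. The study concludes that capture of a contact need not mean that the sequences lay close together in the nucleus.

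All 4422 forward-reverse pairs of 133 EcoRI fragments on chromosome 2 were used, between positions 74241352 and 74907778 (mm9). The cluster, from Evx2 to Hoxd1, held 23 fragments (chr2:74483052-74604594), the 5′ flank with Lnp held 40 and the 3′ flank with Mtx2 held 70. Analysis was restricted to the 4251 pairs at least 10 kb apart, of which 105 had both ends in the cluster. Values are reads of a contact per 1000 reads of the library, and a readout is the mean of this value over a named set of pairs. Total reads per library were 769601 to 1708047 in the 5 mutant libraries and 653441 and 692267 in wild type.

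Fragments on which the results turn are identified by the 30 bases across the EcoRI site at their 3′ end (plus strand of mm9), with the EcoRI recognition site in capitals.
mHoxD_67, with Evx2, chr2:74498285-74498314: aatgagtattttatttaacaaataGAATTC
mHoxD_73, with Hoxd12, chr2:74515412-74515441: aatctgtccagcctcattcccagtGAATTC
mHoxD_75, with Hoxd11, chr2:74524291-74524320: ctcagaaagtgattattttgtttaGAATTC
mHoxD_78, with Hoxd9, chr2:74538458-74538487: ctatcctgtagccagggccacaatGAATTC
mHoxD_93, between Hoxd3 and Hoxd1, chr2:74598952-74598981: tagtgcaaatggcaaacatctgctGAATTC
mHoxD_94, with Hoxd1, chr2:74604568-74604597: tgataggaatgtgaaattgcacctGAATTC

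Contacts within the cluster were lowest in Eed-/- cells, at an intermediate level in Ring1B-/- cells and highest in wild type. The mean over the 105 cluster pairs was 0.365 and 0.468 reads per 1000 in the 2 Eed-/- libraries. It was 0.611, 0.551 and 1.07 in Ring1B-/- replicates 1, 2 and 3. Wild-type libraries held 1.27 and 1.47. Both Eed-/- libraries lay below all Ring1B-/- libraries, and all mutant libraries lay below wild type, but Ring1B-/- replicate 3 was much closer to wild type than to the other libraries of its group. As a share of the wild-type mean, 30.4% remained in Eed-/- cells and 54.3% in Ring1B-/- cells. Against wild type the log2 difference was -1.68 ± 0.30 (SE; limma, adjusted p = 0.00055) in Eed-/- and -0.92 ± 0.28 (adjusted p = 0.046) in Ring1B-/- cells. Both comparisons share the wild-type libraries. The Ring1B-/- difference did not pass without Ring1B-/- replicate 1 (-0.81), Ring1B-/- replicate 2 (-0.74), wild-type replicate 1 (-1.03) or wild-type replicate 2 (-0.82).

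Between the mutants, the cluster mean differed by -0.76 on the log2 scale (95% interval -1.34 to -0.17), which did not pass the threshold over the 37 region readouts tested (limma, adjusted p = 0.11). Without Ring1B-/- replicate 3 the difference was -0.47. It passed when the cluster was taken from Hoxd13 to Hoxd1 (-0.93, adjusted p = 0.037) and when log2 values rather than reads were averaged over pairs (-1.47, adjusted p = 3.5e-05), a mean in which pairs with few or no reads weigh more. After each fragment was scaled by its contacts elsewhere, the difference was -0.19 (adjusted p = 0.96). Domain enrichment, the log2 ratio of cluster pairs to flank pairs at matched distances within a library, was 1.03 and 0.90 in Eed-/-, 1.35, 1.63 and 2.57 in Ring1B-/- and 3.11 and 3.21 in wild type. By this ratio of means, all 7 libraries kept more contacts in the cluster than in the flanks. Counted by pair, 65 and 57 of the 105 cluster pairs lay above the flank median of their distance class in Eed-/- libraries. The counts were 76, 81 and 86 in Ring1B-/- replicates 1, 2 and 3 and 92 and 97 in wild type. The mutants differed in domain enrichment by -0.88 ± 0.33 (adjusted p = 0.11), by -0.52 without Ring1B-/- replicate 3 and by -0.07 after scaling by fragment (adjusted p = 0.96). With 2 libraries against 3, an exact permutation test (two-sided) cannot go below p = 0.2, the value it gave for both readouts.

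The 2 mutants were further apart in the number of cluster pairs without a read in a library. Of the 105 cluster pairs, 32 and 31 had no read in the Eed-/- libraries. Ring1B-/- replicates 1, 2 and 3 had 4, 7 and 7 such pairs, and the wild-type libraries had 11 and 5. Pairs without a read in every library of a group were 17 in Eed-/- (16.2% of cluster pairs), 2 in Ring1B-/- and 2 in wild type. Many pairs without a read in 1 Eed-/- library thus had reads in the other. The Eed-/- libraries, with 1086406 and 906901 reads, were deeper than both wild-type libraries and Ring1B-/- replicate 2 and shallower than Ring1B-/- replicates 1 and 3. Drawing every library down to 653441 reads left the expected number at 32.5 and 32.3 in Eed-/- and at 5.15 to 7.27 in Ring1B-/-. That draw covers read sampling only, not the larger differences between replicate libraries. Within the flanks, over the same range of distances, pairs without a read made up 44.7% and 40.1% in Eed-/- libraries and 44.7% and 43.9% in wild-type libraries. The flank share in Ring1B-/- libraries was 11.05%, 39.3% and 32.5% in replicates 1, 2 and 3, with the lowest share in replicate 1, the deepest library. Both Eed-/- libraries thus had more pairs without a read than all Ring1B-/- libraries in the flanks as well as in the cluster, whereas they were above wild type in the cluster and overlapped with or lay below it in the flanks. There were 11 cluster pairs (10.5%) with no read in either Eed-/- library and at least 1 in every Ring1B-/- library, and 0 of the reverse kind. Over all 4251 pairs the first kind made up 6.30% and the reverse 0.353%.

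**Figure D1:**
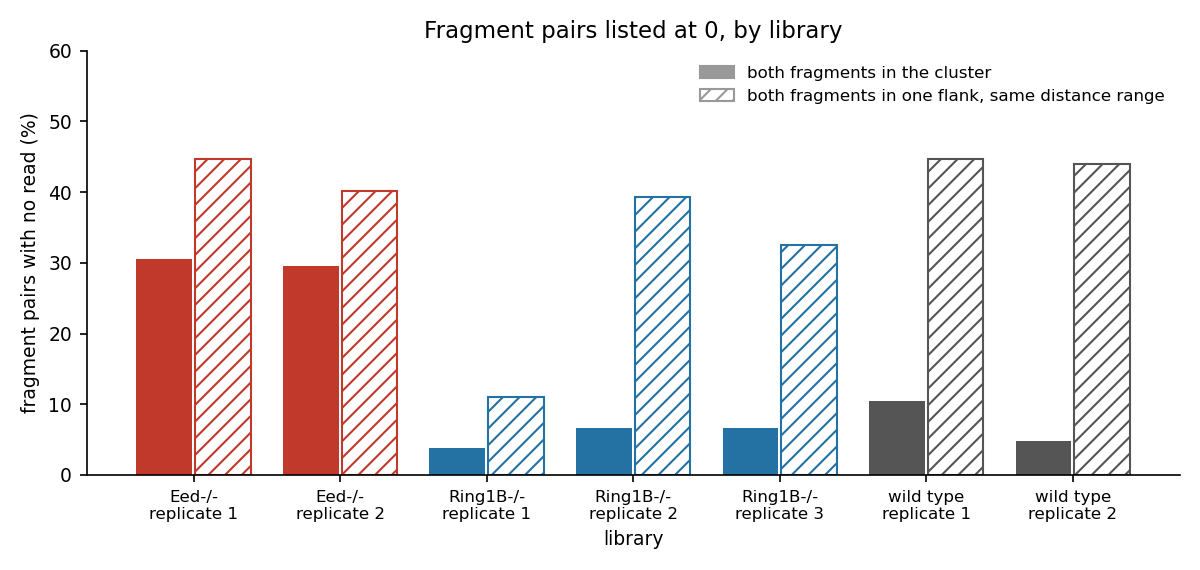
Share of fragment pairs with no read (%, y axis) in each library (x axis). Solid bars are the 105 pairs with both fragments in the cluster and hatched bars are the 842 pairs within one flank over the same distances. The solid bars stand at 30.5% and 29.5% in Eed-/- libraries and at 3.81% to 10.5% in the other libraries, while the hatched bars of Eed-/- and wild-type libraries are of similar height.

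At the level of single pairs, 0 of the 3484 pairs tested passed the threshold between the mutants (limma, adjusted p; background 0.0% called), with 270 at an unadjusted p under 0.05. Pairs were therefore counted by whether the groups overlapped. Of the 104 cluster pairs tested, 36 (34.6%) had both Eed-/- libraries below all Ring1B-/- libraries and 0 had them above. Across all 3484 pairs these shares were 11.9% below and 5.91% above. Inside the cluster the share was 52.8% of pairs at 20 to 40 kb (19 of 36), 29.3% at 40 to 80 kb (12 of 41) and 17.6% at 10 to 20 kb (3 of 17). Of the pairs that joined the cluster to the 3′ flank, 136 of 754 were below. The share was 12.2% for pairs of the cluster with the 5′ flank and 6.88% for pairs from flank to flank. The median log2 difference between the mutants was -1.23 over cluster pairs and -0.60 over all pairs. Leaving out Eed-/- replicate 2 raised the cluster count to 59 and leaving out Ring1B-/- replicate 2 raised it to 56. The share over all pairs rose with them, to 19.1% and 23.5%.

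**Figure D2:**
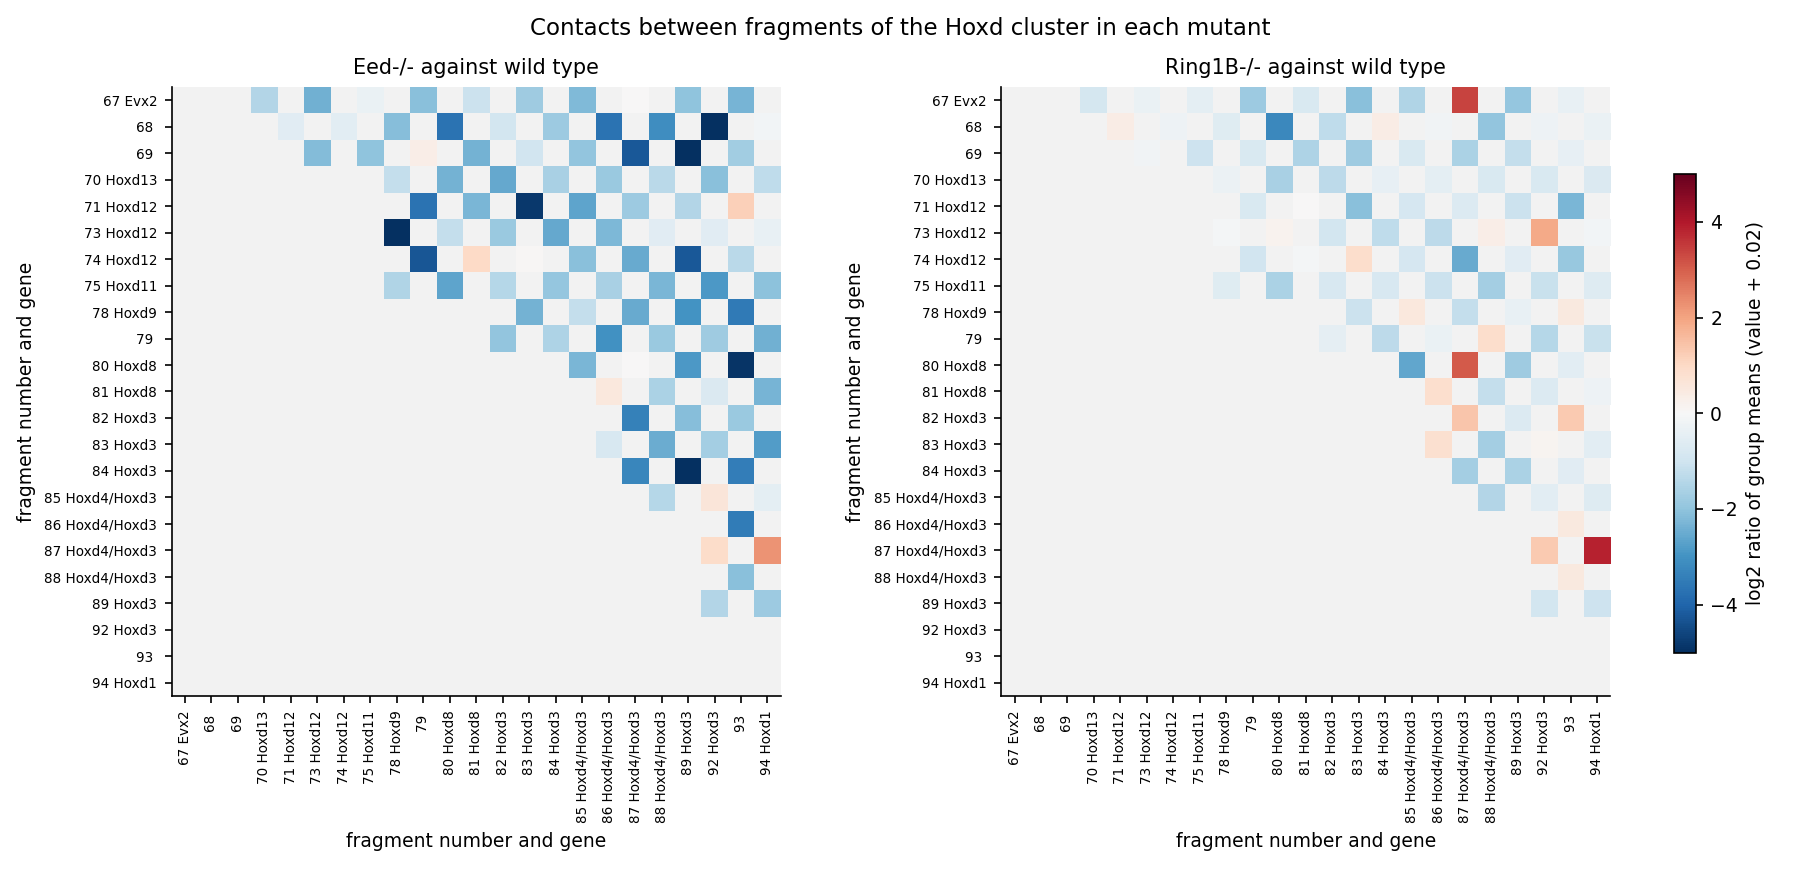
Contacts between the 23 cluster fragments, as the log2 ratio of group means (value + 0.02) of Eed-/- (left) or Ring1B-/- (right) to wild type. Each coloured square is 1 forward-reverse pair at least 10 kb apart (both axes, fragment number and gene in genome order), and grey squares hold no such pair. Blue, a lower value than in wild type, is darkest in the Eed-/- panel, where 11 pairs seen in both wild-type libraries had no read in either library.

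By distance, the order of the group means was the same in all 4 classes of the cluster. At 10 to 20 kb, Eed-/- libraries held 0.682 and 0.694, Ring1B-/- libraries 0.925, 0.886 and 1.78, and wild type 1.91 and 2.45. At 40 to 80 kb the values were 0.315 and 0.281 in Eed-/-, 0.451, 0.406 and 0.852 in Ring1B-/- and 1.12 and 1.31 in wild type. In both of these classes Eed-/- libraries were below all Ring1B-/- libraries, whereas they overlapped at 20 to 40 kb and beyond 80 kb. Differences between the mutants lay between -0.82 and -0.71 (adjusted p = 0.11 in each of the 4 classes). Against wild type, Eed-/- cells were lower in 4 of 4 classes and Ring1B-/- cells in 3 of 4, all but 20 to 40 kb (-0.68, adjusted p = 0.22). The ratio of near (under 40 kb) to far contacts differed between the mutants by 0.10 ± 0.22 (log2, SE).

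Contacts between the cluster and either flank did not separate the mutants as a whole. The mean of cluster to 3′ flank pairs was 0.160 and 0.187 in Eed-/-, 0.190, 0.160 and 0.227 in Ring1B-/- and 0.208 and 0.194 in wild type. The mutants overlapped and differed by -0.12 (95% interval -0.63 to 0.39). For cluster to 5′ flank pairs the values were 0.103 and 0.101 in Eed-/-, 0.0986, 0.117 and 0.165 in Ring1B-/- and 0.125 and 0.163 in wild type. Here the difference was -0.24 (95% interval -0.71 to 0.23). Side balance, the log2 ratio of 3′ to 5′ contacts of the cluster, was 0.40 and 0.98 in Eed-/- and 0.83, 0.40 and 0.31 in Ring1B-/-, a difference of 0.18 ± 0.27 that turned to -0.12 without Eed-/- replicate 2. No difference in side was therefore detectable with these libraries. Within the 3′ flank and within the 5′ flank the mutants differed by 0.05 and 0.02.

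By distance, Eed-/- libraries were below all Ring1B-/- libraries in 10 of the 37 region readouts (27.0%) and above in 1 (2.7%). Among cluster to 3′ flank classes this held at 10 to 20 kb and at 40 to 80 kb, where Eed-/- libraries held 0.163 and 0.133 and Ring1B-/- libraries 0.226, 0.215 and 0.225 (-0.53, adjusted p = 0.13). Over the 6 pairs that joined the cluster to the first 10 to 20 kb of the 3′ flank, Eed-/- libraries held 0.137 and 0.224 reads per 1000. Ring1B-/- libraries held 0.467, 0.539 and 0.560, and wild type held 0.545 and 0.382. All Ring1B-/- values were within or just above the wild-type range, and both Eed-/- values were below every other library. This was the 1 readout of 37 (2.7% called) that passed between the mutants, with a difference of -1.47 ± 0.26 (adjusted p = 0.0013). It did not pass without Eed-/- replicate 1 (-1.15, adjusted p = 0.069) or after scaling by fragment (-0.50, adjusted p = 0.96). The factors of that scaling included the 6 pairs themselves, so it was not independent of this readout.

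**Figure D3:**
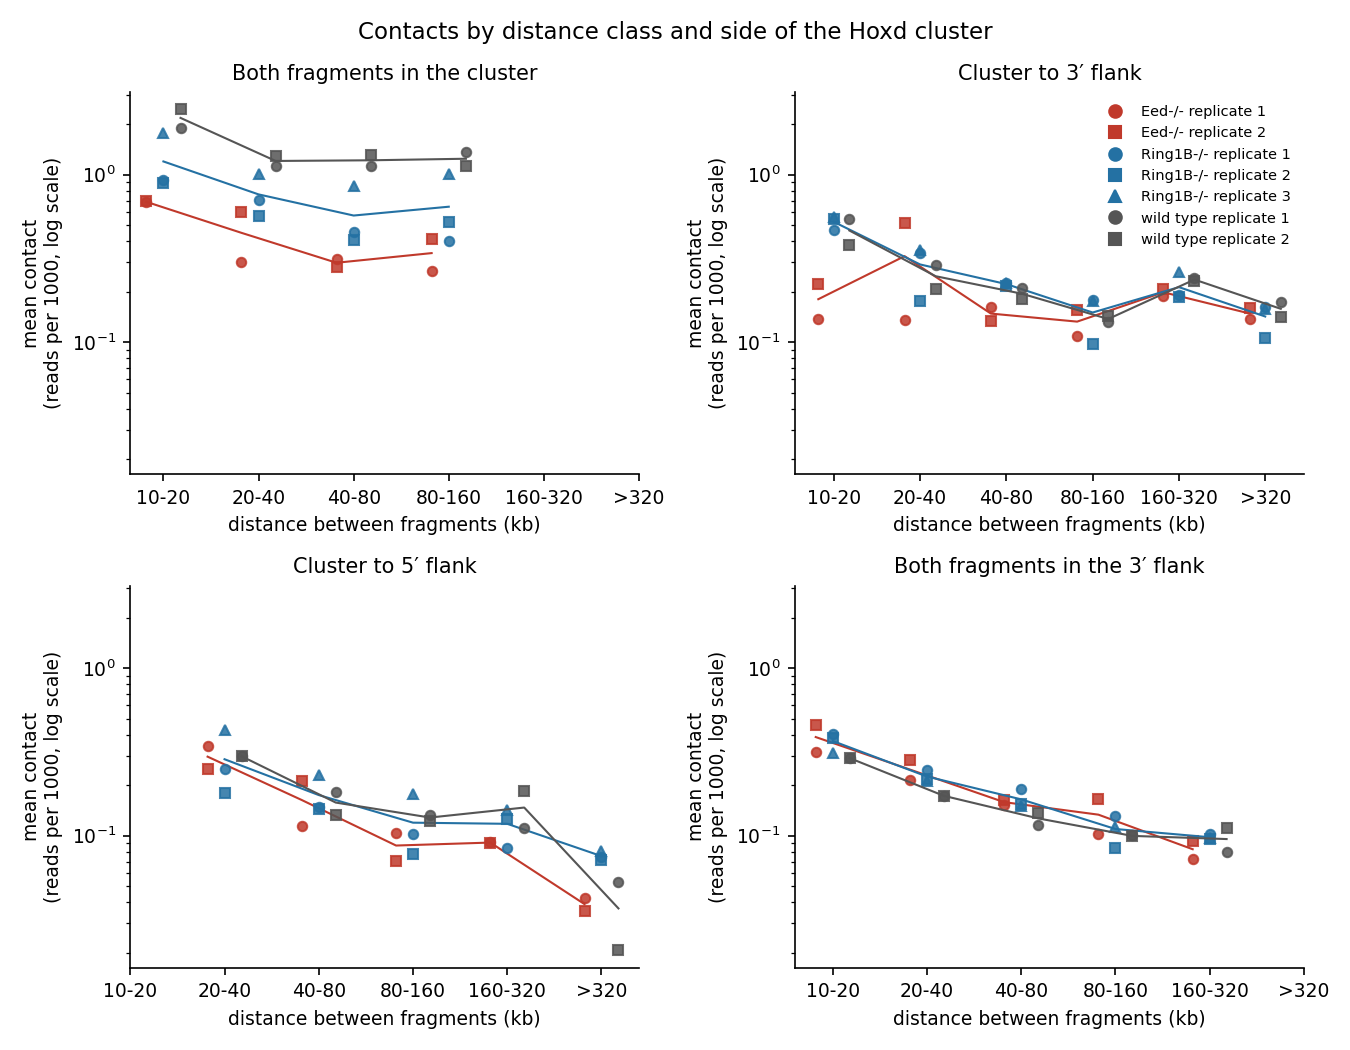
Mean contact (reads per 1000, log y axis) by distance between fragments (kb, x axis) for pairs inside the cluster, from the cluster to each flank, and inside the 3′ flank. Points are libraries and lines are group means. Inside the cluster the group means stand in the order Eed-/-, Ring1B-/-, wild type at every distance, and in the first class of the cluster to 3′ flank panel both Eed-/- libraries (0.137 and 0.224) are the lowest.

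Each of the 23 cluster fragments was then used as an anchor, and its mean contact with the rest of the cluster was taken. Anchors share pairs with each other, so they are not independent. The Eed-/- mean was below the Ring1B-/- mean at 23 of 23 anchors, and both Eed-/- libraries were below all Ring1B-/- libraries at 11 (47.8%, against 22.1% of all 399 anchor readouts). Eed-/- anchors kept between 15.3% and 49.0% of the wild-type level, with a median of 28.9%. Ring1B-/- anchors kept between 33.5% and 118%, with a median of 52.6%. The anchor with the lowest share was the same in both mutants, fragment 80, which overlaps Hoxd8. Ring1B-/- replicate 3 was the highest library of its group at 20 of the 23 anchors. Against wild type, 15 of the 23 anchors were lower in Eed-/- cells and 0 of 23 in Ring1B-/- cells (5.01% and 0.0% of the 399 anchor readouts called, 4.51% as lower in Eed-/-, and 62 and 42 at an unadjusted p under 0.05), although all 3 Ring1B-/- libraries lay below both wild-type libraries at 15 anchors. Without Eed-/- replicate 1 or 2 or wild-type replicate 1, 10, 7 and 6 of the 399 passed between Eed-/- and wild type, and without wild-type replicate 2 it was 0.

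**Figure D4:**
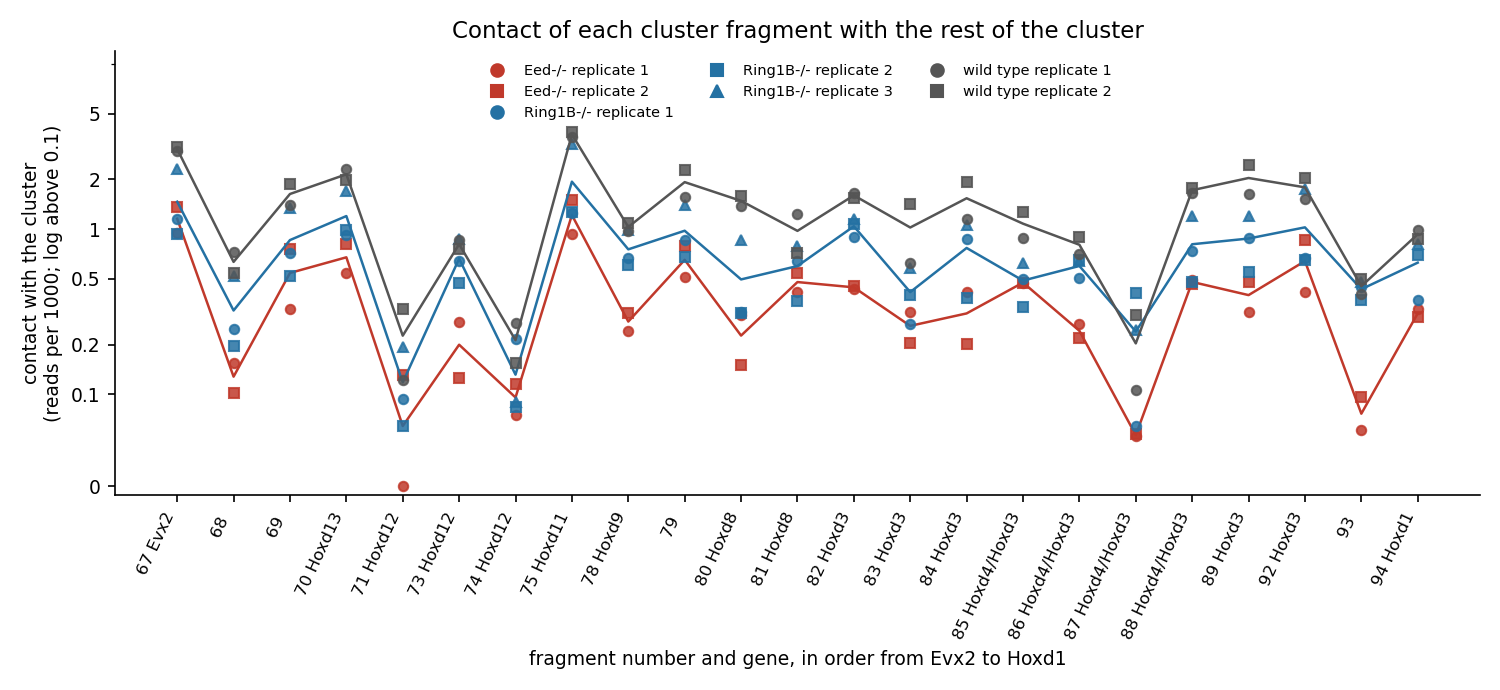
Mean contact of each cluster fragment with the rest of the cluster (reads per 1000, y axis, log scale above 0.1 and linear below), with fragments in genome order from Evx2 to Hoxd1 (x axis). Points are libraries and lines are group means. Fragment 93 stands out: the Ring1B-/- points lie at 0.372 to 0.477, close to wild type at 0.405 and 0.497, while the Eed-/- points are at 0.061 and 0.097.

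Fragment 93 showed the largest difference between the mutants of the anchor readouts that passed. It covers chr2:74591760-74598978, between Hoxd3 and Hoxd1, where the annotation places the noncoding transcripts 6720416L17Rik and Gm14426 and the end of Gm14424. Its contact with the cluster was 0.0606 and 0.0971 in Eed-/- and 0.449, 0.372 and 0.477 in Ring1B-/-, against 0.405 and 0.497 in wild type. Ring1B-/- replicates 1 and 3 lay within the wild-type range and replicate 2 just below it, and both Eed-/- libraries were below all of them. The difference between the mutants was -2.21 ± 0.39 (adjusted p = 0.0031). It did not pass without Eed-/- replicate 1 (-1.94, adjusted p = 0.080) or after each fragment was scaled by its contacts elsewhere (-0.14, adjusted p = 0.98). Of its 10 cluster pairs, 7 had both Eed-/- libraries below all Ring1B-/- libraries, and 5 and 6 had no read in the Eed-/- libraries. It holds 7.34 CpG dinucleotides per kb, against a median of 26.8 per kb over the 23 fragments. Across the 23 fragments, the share of the wild-type level that remained in Eed-/- cells had a Pearson correlation of -0.48 with GC content and the difference between the mutants one of -0.21. With CpG dinucleotides per kb the correlations were -0.44 and -0.08. All of these values describe fragments with shared pairs and libraries.

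The other anchor readouts that passed, all lower in Eed-/- cells (5 of 399, 1.25% called), were fragment 73 with Hoxd12 and 3 fragments outside the cluster. Fragment 73 held 0.273 and 0.126 in Eed-/-, 0.639, 0.473 and 0.874 in Ring1B-/- and 0.860 and 0.760 in wild type, a difference of -1.68 ± 0.41 (adjusted p = 0.048). The other fragments with Hoxd12, 71 and 74, did not pass, and the mutants overlapped at both. Their differences were -1.22 (limma, adjusted p = 0.30) and -0.30 (adjusted p = 0.82). Outside the cluster, the readouts were the contacts with the cluster of fragment 4 in the 5′ flank and of fragments 159 and 173 in the 3′ flank, all below 0.2 reads per 1000 in every library. Leaving out Eed-/- replicate 1 left 0 of the 399 anchor readouts past the threshold, and leaving out Ring1B-/- replicate 1 left 2. Leaving out Eed-/- replicate 2 left 3.

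Contacts were also read by gene, taking the fragments that overlap each gene body. Of 81 gene readouts, 9 passed between the mutants (11.1% called), all lower in Eed-/- cells, against a median difference of -0.51 over the 81. Eed-/- libraries were below all Ring1B-/- libraries in 32.1% of the readouts and above in 4.94%. Hoxd9 or Hoxd12 was 1 end of 8 of the 9, and of 20 of the 81. Both Eed-/- libraries were below all Ring1B-/- libraries in 14 of those 20, against 26 of the 81. In the rest of the 20 the mutants overlapped, as in Hoxd12 to Hoxd8 (-0.25) and Hoxd11 to Hoxd9 (-0.66). The gene readouts are nested and share pairs, since those of Hoxd9 with Hoxd12 and Hoxd3 lie within that of Hoxd9 with the cluster, and that with Lnp lies within that with the 5′ flank. Without Eed-/- replicate 2, 2 of the readouts passed, and after scaling by fragment 1 did. Hoxd10 has no fragment in the design, and Hoxd3 and Hoxd4 overlap and share fragments 85 to 88.

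Hoxd9 and Hoxd12 encode homeodomain transcription factors of the 5′ part of the cluster. The clearest case was the contact between them, the single pair of fragments 73 and 78, which lie 23.2 kb apart. It had no read in either Eed-/- library, where 3 reads would amount to 0.00276 and 0.00331 per 1000. In Ring1B-/- libraries it held 0.686, 0.438 and 0.739, and in wild type 0.756 and 0.588. In Ring1B-/- cells 92.4% of the wild-type level remained. With 3 reads as the limit, contact was at least 205-fold higher in Ring1B-/- than in Eed-/- libraries, but that limit covers counting error only. Fragments 67 and 85, for example, had 544 reads in Eed-/- replicate 1 and none in replicate 2, and fragments 67 and 93 had none and 232. The log2 difference between the mutants was -4.97 ± 0.44 (limma, adjusted p = 1.9e-05). Among the gene readouts this call held under all 13 alternatives tried. In the fit across single fragment pairs, where the error was larger (SE 1.14 against 0.44), the same contact did not pass (adjusted p = 0.37).

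From Hoxd9 to Hoxd3, a gene of the 3′ part, contact was 0.138 and 0.109 in Eed-/-, 0.601, 0.440 and 0.484 in Ring1B-/- and 0.453 and 0.982 in wild type. The difference between the mutants was -1.88 ± 0.34 (adjusted p = 0.0071). From Hoxd9 to the cluster as a whole, Eed-/- libraries held 0.240 and 0.311, Ring1B-/- libraries 0.665, 0.609 and 0.987, and wild type 0.970 and 1.09 (-1.37 ± 0.33, adjusted p = 0.017). From Evx2, a homeobox gene at the 5′ end, to Hoxd12, Eed-/- libraries held 0.492 and 0.233, Ring1B-/- libraries 1.498, 1.08 and 2.18, and wild type 2.01 and 1.98. Here 18.2% of the wild-type level remained in Eed-/- cells and 79.5% in Ring1B-/- cells (-2.10 ± 0.46, adjusted p = 0.015). This readout was the single pair of fragments 67 and 73. In the fit across single fragment pairs it did not pass (SE 1.15, limma, adjusted p = 0.66). In each of these readouts the groups of mutant libraries did not overlap. Without Eed-/- replicate 2, Hoxd9 to Hoxd3 was at -1.73 (adjusted p = 0.058) and Evx2 to Hoxd12 at -1.59 (adjusted p = 0.14). Hoxd9 to the cluster did not pass without Eed-/- replicate 1 (-1.19) or 2 (-1.54).

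Hoxd12 to the cluster (-1.22 ± 0.34, adjusted p = 0.039) and Hoxd12 to Hoxd3 (-1.25 ± 0.33, adjusted p = 0.032) also passed. For Hoxd12 to the cluster the difference turned to 0.31 after each fragment was scaled by its contacts elsewhere. Both were lost without Eed-/- replicate 2 (-1.20 and -0.93), Ring1B-/- replicate 1 (-1.18 for each) or Ring1B-/- replicate 3 (-1.03 and -1.13), and Hoxd12 to the cluster also without Eed-/- replicate 1 (-1.24).

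Other calls reached outside the cluster. Lnp, a gene of the 5′ flank that shares limb enhancers with the 5′ Hoxd genes, contacted Hoxd9 at 0 and 0.0165 in Eed-/- and at 0.0884, 0.0572 and 0.0767 in Ring1B-/- libraries. Wild-type libraries held 0.0214 and 0.0370, so that the Ring1B-/- values were above wild type and the Eed-/- values below it, although neither mutant passed against wild type (adjusted p = 0.11 for each). The difference between the mutants was -1.79 ± 0.34 (adjusted p = 0.0071) and did not pass without Eed-/- replicate 1 (-1.35, adjusted p = 0.052). Hoxd9 to the whole 5′ flank followed the same order, with 0.0109 and 0.0223 in Eed-/- and 0.0758, 0.0842 and 0.0664 in Ring1B-/- (-1.40 ± 0.32, adjusted p = 0.015), and was lost without either Eed-/- library (-1.17 and -1.62). At the 3′ end, Hoxd1 contacted Mtx2, the next gene on that side, at 0.0602 and 0.0176 in Eed-/- and at 0.207, 0.313 and 0.138 in Ring1B-/- libraries. In wild type that readout was 0.0566 and 0.105. The mutants differed by -2.06 ± 0.47 (adjusted p = 0.015), or by -1.51 (adjusted p = 0.16) without Eed-/- replicate 2.

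Hoxd9 to Mtx2 was the 1 gene readout that passed as higher than wild type, in both mutants. It held 0.0858 and 0.0829 in Eed-/-, 0.169, 0.223 and 0.177 in Ring1B-/- and 0.0113 and 0.0199 in wild type. Both wild-type values were below the 0.02 that was added before the log. Alternatives for gene readouts against wild type were taken as counts, not for this readout by itself. The log2 difference from wild type was 1.56 in Eed-/- (adjusted p = 0.0067) and 2.56 in Ring1B-/- cells (adjusted p = 0.00033), and the mutants did not pass against each other (95% interval -1.67 to -0.33, adjusted p = 0.058). In Ring1B-/- cells it was the 1 gene readout of 81 called against wild type (1.23%). That count rose to 14, of which 13 were lower, without Ring1B-/- replicate 3. In Eed-/- cells 29 were called (35.8%), of which 28 were lower, including all 9 readouts of a Hoxd gene or Evx2 with the cluster. Without wild-type replicate 1 or 2 the Eed-/- count was 7 or 6, and without Eed-/- replicate 1 it was 19. The 28 lower calls made up 34.6% of the readouts.

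In some readouts of Evx2, Hoxd11 and Hoxd8 the mutants overlapped. Those given here were chosen after their values were seen, and in others, such as Evx2 to Hoxd12 and Hoxd11 to Hoxd3, the mutants did not overlap. Evx2 to Hoxd3 held 0.853 and 0.445 in Eed-/-, 0.475, 0.483 and 1.13 in Ring1B-/- and 2.26 and 2.75 in wild type. The mutants differed by -0.05 (95% interval -1.15 to 1.05) and kept 25.9% and 27.8% of the wild-type level. Hoxd11, a 5′ gene, contacted Hoxd8 at 0.706 and 0.565 in Eed-/- and at 0.492, 0.910 and 2.63 in Ring1B-/-, against 3.84 and 4.35 in wild type. Ring1B-/- replicates 1 and 2 were at the Eed-/- level in this readout, and replicate 3 lay between them and wild type. The mean contact of Hoxd8 with the cluster was 0.360 and 0.345 in Eed-/- and 0.477, 0.337 and 0.826 in Ring1B-/-, a difference of -0.51 (95% interval -1.34 to 0.32). Evx2 to Hoxd11 was high in all groups, at 2.38 and 6.05 in Eed-/-, 2.85, 1.47 and 7.09 in Ring1B-/- and 5.09 and 5.66 in wild type. Whether the anchors differ from each other in this respect was not tested.

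**Figure D5:**
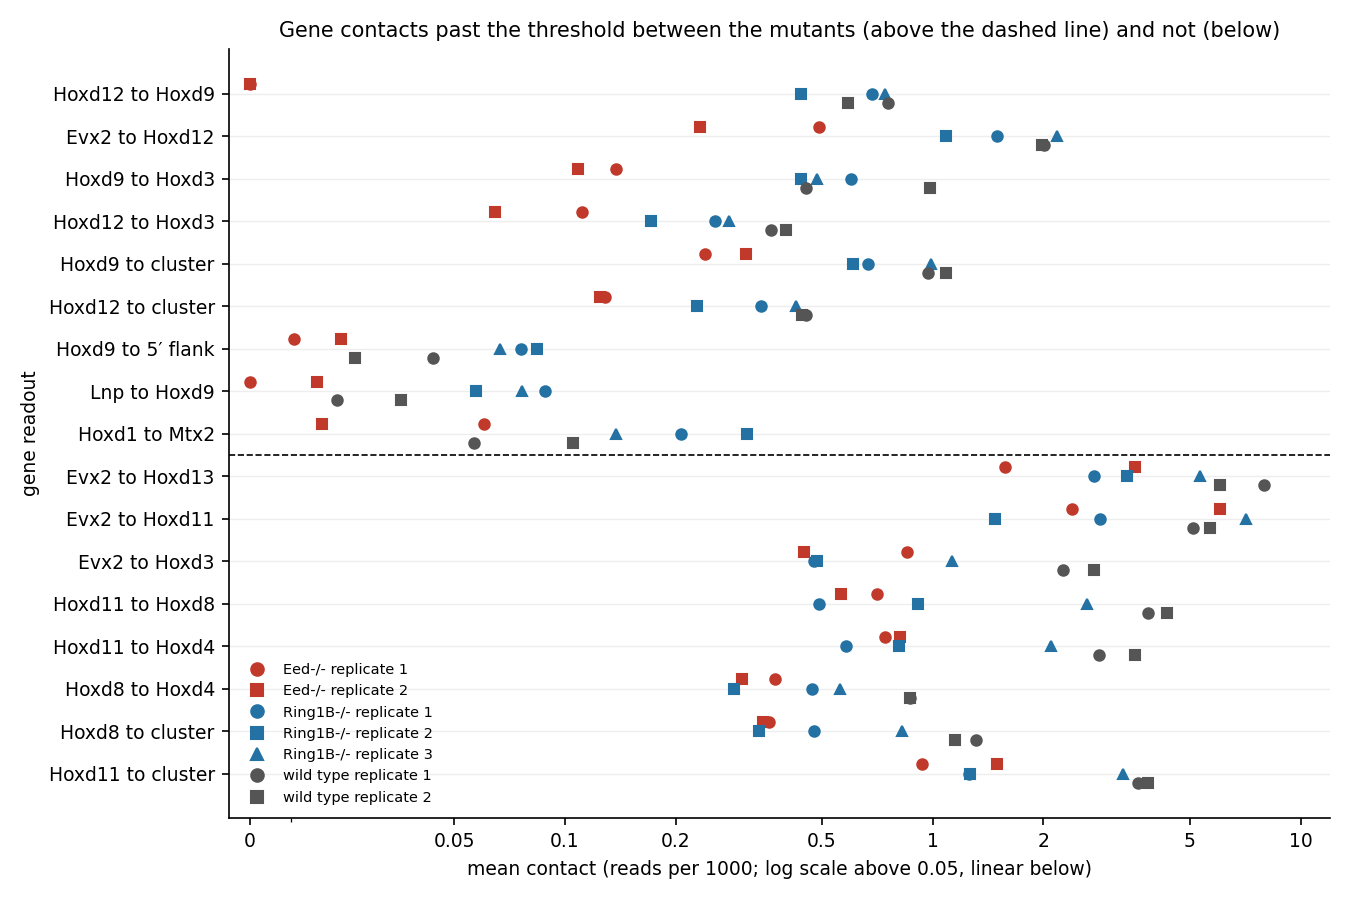
Mean contact (reads per 1000, x axis, log scale above 0.05 and linear below) of gene readouts (y axis) in each library. The 9 readouts above the dashed line passed between the mutants and show no overlap of Eed-/- and Ring1B-/- points. The 8 below it did not pass, were chosen after their values were seen, and show Ring1B-/- replicates 1 and 2 among or near the Eed-/- points, with replicate 3 nearer to wild type in most.

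In bins of 20 kb, 7 of 557 bin pairs passed between the mutants (1.26% called), 6 lower (1.08%) and 1 higher in Eed-/- cells. Eed-/- libraries were below all Ring1B-/- libraries in 17.2% of bin pairs and above in 8.44%. Inside the cluster the bin with Hoxd9 (chr2:74537329-74542114) contacted that with Hoxd4 and Hoxd3 (chr2:74563668-74574606) at 0.136 and 0.0722 in Eed-/- and at 0.817, 0.471 and 0.864 in Ring1B-/-, against 0.552 and 1.01 in wild type (-2.57 ± 0.51, adjusted p = 0.036). This pair was named after its value was seen, and it did not pass without Eed-/- replicate 1 (-2.95) or 2 (-2.19) or Ring1B-/- replicate 1 (-2.46) or 3 (-2.42). The bin with Evx2 and a bin 3′ of Hoxd1 (chr2:74621722-74640633) had no read over 6 pairs in either Eed-/- library and 0.0800, 0.180 and 0.115 in Ring1B-/- libraries (adjusted p = 0.0071), or 0.051 without Eed-/- replicate 1. In the 5′ flank, a contact on the far side of Lnp from the cluster (chr2:74302365-74324081 with chr2:74325218-74331951) had no read in Eed-/- libraries and 0.285, 0.292 and 0.211 in Ring1B-/-, with 0.190 and 0.113 in wild type (adjusted p = 0.00097). The second of these bins contacted one inside Lnp (chr2:74383684-74388704, 1 pair) in Ring1B-/- cells only, at 0.193, 0.431 and 0.323, with no read in Eed-/- or wild-type libraries. As a single fragment pair it did not pass in the fit across pairs. It was 1 of the 2 bin pairs called between Ring1B-/- cells and wild type (0.359%). The 1 rise in Eed-/- cells joined neighbouring bins that reach the start of Mtx2 (chr2:74640634-74658390 with chr2:74659682-74680230, 2 pairs). It held 1.61 and 1.33 in Eed-/-, 0.321, 0.197 and 0.268 in Ring1B-/- and 0.197 and 0.306 in wild type (2.42 ± 0.51, adjusted p = 0.048). Without Eed-/- replicate 1, Ring1B-/- replicate 1, 2 or 3, the number called was 3 or 4, and with bins of 30 kb it was 0 (27 at an unadjusted p under 0.05). The other 2 falls were the bin of Hoxd9 with one at the far 5′ end (chr2:74285357-74302364), with no read in Eed-/- and 0.171, 0.0819 and 0.214 in Ring1B-/- libraries (adjusted p = 0.049), and a contact within one bin of the 3′ flank (chr2:74759942-74777382), at 0.120 and 0.101 against 0.622, 1.36 and 0.786 (adjusted p = 0.036). Those 2 were each lost in 9 of 13 alternatives. The contacts of the 5′ flank kept their calls under all 13 alternatives, and the rise at Mtx2 was lost in 10 of 13. Those 5′ flank contacts share the bin chr2:74325218-74331951, so they are not separate findings. That bin also had no read in either Eed-/- library with several other bins.

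Replicate libraries resembled each other little outside the cluster. Over the cluster pairs the Spearman correlation was 0.56 between the Eed-/- libraries, 0.58 to 0.73 among Ring1B-/- libraries and 0.80 between wild-type libraries. Ring1B-/- replicate 3 correlated with wild type at 0.78 and 0.79, as closely as the wild-type libraries did with each other. Replicate 1 did so at 0.73 and 0.66 and replicate 2 at 0.59 and 0.50. The correlations of Eed-/- libraries with wild type were 0.70 and 0.61 for replicate 1 and 0.64 and 0.64 for replicate 2. Over pairs that do not touch the cluster, all of these correlations lay between 0.25 and 0.34. Replicate libraries differed by far more than the sampling noise of their reads, so each was counted as a sample of its own.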

How the data were processed

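Contacts were measured by 5C in 14 libraries of the ESC design, which entered the fit, and in 4 limb libraries, not used here. Besides the mutants and wild type, the fit held OS25 ESCs, either undifferentiated or differentiated with retinoic acid. It also held Ring1B-/- cells rescued with wild-type Ring1B or with a Ring1B mutant deficient in ubiquitination. Those libraries entered the estimate of spread behind each SE and p-value, and the filter on the mean. The deposited signal values are, per the labels and methods of the authors, a contact's reads over all reads of its run, times 1000. Coordinates are mm9 (NCBIM37) and genes are from GENCODE vM1. No source used here names the aligner. Values were whole multiples of the value of 1 read in every library, which gave total reads. All 133 fragments end at an EcoRI site and 132 start at one. Readouts were tested as log2(value + 0.02) with limma 3.58.1 (R 4.3.3), with a group-means model over all 14 libraries of the ESC design and the Benjamini-Hochberg adjustment at 0.05 within each table. A fold change on this scale understates that of low contacts. Pairs and bins with a mean over 0.02 were tested, and anchor readouts held at least 3 pairs. The fit was tested on simulated data. Limits for counts of 0 (3 reads) cover counting error only. The legends of the paper call the replicate 5C data biological, but do not say whether cultures were separate. Nothing in the labels says so either. The p-values therefore measure the spread between libraries, part of which may be technical. Members, readouts and tests were chosen with earlier results of these data known. Genes of the locus with a fragment were named, and for anchors and bins up to 5 rises and falls among those that passed. Alternatives included 2 other scalings, factors per fragment, other pseudocounts, filters and distances, and the omission of each library. Fragment factors were taken from all pairs at least 10 kb apart except those with both ends in the cluster. The gene readouts, the counts of pairs without overlap and the alternatives for both, and those against wild type, were chosen after seeing the data.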

Additional observations from a re-analysis of the deposited data

How the results depend on the processing

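With 2 or 3 libraries in a group, few calls held under every setting. Between the mutants, cluster contacts (main log2 difference -0.76) were at -0.93 for the window from Hoxd13 to Hoxd1 and at -1.47 as a mean of log2 values, both past the threshold, as was domain enrichment (-0.88) under median-ratio scaling. That scaling moved the median difference over pairs by 0.14 and turned cluster to 3′ flank contacts to 0.12. Scaling each fragment by its contacts elsewhere brought cluster contacts to -0.19 and enrichment to -0.07 (adjusted p = 0.96 for both) and turned Hoxd12 to the cluster to 0.31. Side balance ran from -0.12 to 0.47 when single libraries were left out. The cause of these changes was not tested.

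The count of bin pairs (7) was 11 under flank scaling, 11 with a filter of 0.1, 13 with a trend in eBayes, 4 with fragment factors, 2 with the mutants alone in the fit, 2 with mutants and wild type, 0 with 30-kb bins, and 3 to 6 leaving out single libraries. That of fragment pairs (0) was 1 with a trend and 22 without a filter. That of anchors (5) was 1 under flank scaling, 1 under median-ratio scaling, 1 with mutants alone, 1 with mutants and wild type, 2 with factors, 2 with a trend, 3 with a pseudocount of 0.005, and 0 to 5 leaving out single libraries. That of genes (9) was 1 with mutants alone, 1 with factors, 4 with mutants and wild type, and 2 to 9 leaving out single libraries. The 36 cluster pairs without overlap became 39 under flank scaling, 31 under median-ratio scaling, 30 with factors, and 41 to 59 leaving out single libraries.

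Against wild type, Eed-/- enrichment was -0.96 with factors (adjusted p = 0.050, not past the threshold). Its gene count (29) was 19 under median-ratio scaling, 18 with factors, 19 with mutants and wild type, and 6 to 26 leaving out single libraries, and its anchor count (20) was 6 with factors, 13 with mutants and wild type, and 0 to 10. Ring1B-/- cluster contacts no longer passed under flank scaling (-1.17), factors (-0.79), a trend (-0.92), mutants and wild type alone (-0.92) or a mean of log2 values (-0.67), and ran from -1.21 to -0.74 leaving out single libraries. Ring1B-/- enrichment no longer passed under flank scaling (-1.31) or factors (-0.89), and ran from -1.67 to -1.06. The gene count (1) ran from 1 to 14 and the anchor count (0) from 0 to 1.

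Of 286 alternative values for 22 named readouts, 159 kept the call, 126 lost it and 1 reversed. No paired analysis was possible because the labels number the replicates of some groups only, so no number links libraries across the groups compared.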
